A study of Drosophila melanogaster with 6 samples.

Results

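The proteasome is the protease of the cell that degrades proteins tagged with ubiquitin. Its subunit genes were taken from the array by name, as probe sets whose only gene symbol was Prosalpha, Prosbeta, Rpt or Rpn with a number and no further letter. This gave 26 genes of the 32 subunits listed for the complex, each with 1 probe set, among 18769 tested probe sets (groups of oligonucleotides for 1 transcript). They are 6 alpha and 6 beta subunits of the core, 7 subunits of the base and 7 of the lid. Prosbeta1, Rpt1, Rpt6, Rpn9 and Rpn10 were not analysed here, nor was Prosalpha1, whose probe set also carries Prosalpha1R. The rule used the names alone and no measured value, but it was set with earlier results of these data known.

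In this complex the core particle is a barrel of stacked rings. The outer alpha rings gate the entrance, and some beta subunits of the inner rings carry the proteolytic sites. The regulatory particle caps the barrel: its base holds a ring of ATPases, the Rpt proteins, that unfold substrates, and its lid removes ubiquitin chains. In fruit flies and mammals a transcription factor of the Nrf family, called cnc in flies, can raise the genes of the complex together when proteolysis is impaired.

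The arrays measured RNA of whole male third-instar larvae of Drosophila melanogaster w1118, a white-eyed laboratory strain, as a study of how a mother's sugar intake bears on her offspring. Mothers ate food with 0.15 M sucrose (the control group, 3 arrays) or 1 M sucrose (the high-sucrose group, 3 arrays) for 7 days as virgins, and then were crossed to w1118 males on control food. The offspring of both groups hatched and grew on control food, at 25 C per the labels, and were moved to fresh food 12 h before they were taken. Apart from the titles, the labels give the maternal diet as the only difference between the groups. The titles call the arrays control reared and high sugar reared, without saying whether the mothers' or the larvae's food is meant. The labels disagree on whether the larvae were mid-stage or already wandering, and do not say how many larvae went into an array. In RNA of whole larvae, fewer cells of a type and less RNA per cell cannot be told apart. Values are deposited intensities on a linear scale, written as mean ± SD with n = 3 arrays per group, and they compare 1 probe set between arrays, not genes with each other. The number of arrays limits the precision.

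The arrays had similar overall brightness, with medians of 51.5 to 55.7. Of all probe sets, 107 lay lower and 10 higher in the high-sucrose arrays at an adjusted p under 0.05. Markers of midgut (9 genes), salivary gland (4), fat body (3) and muscle (3) were all above the upper quartile of the probe sets, while of 6 testis markers dj was dim (10.1 ± 3.22 against 17.2 ± 1.55). The midgut enzyme genes were the marker group with most calls, 5 of 9 lower, and 1 of 6 testis markers was higher.

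No proteasome subunit passed the test between the maternal diets: 0 of 26, where 0.623% of all probe sets passed (limma on log2(intensity + 16), Benjamini-Hochberg over all probe sets). At an unadjusted p under 0.05 there was 1 subunit, Rpt5, against 12.4% of all probe sets. The groups did not overlap for that same subunit only, 3.85% of the members, where 18.5% of all probe sets showed no overlap. The log2 differences, high-sucrose minus control, ran from -0.14 to 0.11 with a median of -0.0034, and -0.034 over all probe sets. They lay below 0 for 13 subunits and above 0 for 13, against 58.9% below 0 among all probe sets. That balance depends on the scaling of the arrays: 3 lay below 0 and 23 above after quantile normalization or cyclic loess, with medians of 0.072 and 0.063, and still 0 of 26 passed.

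The 95% intervals give the sizes these arrays leave room for at the deposited scaling. For 24 of the 26 subunits the whole interval lay within 0.25 of 0 on the log2 scale, and for all 26 within 0.5. Of all 18769 probe sets, 3079 and 13466 did so. All 26 subunits are brighter than the upper quartile of the probe sets, and the share among probe sets that bright was not counted. Of other bright genes, taken up below, the interval lay within 0.25 for 12 of 13 of the eIF3 complex and 8 of 8 of the CCT chaperonin. It did so for 3 of 6 proteasome assembly and associated factors. Among the subunits the lowest bound was -0.26 for Rpt5 and the highest 0.27 for Rpt3, the 2 whose intervals reach past 0.25. In percent of the control level, on the scale of the fit, the interval of the difference spans -16.3% to -1.34% for Rpt5 and -2.58% to 20.2% for Rpt3. Other scalings shift the intervals: after quantile normalization the log2 differences of Rpt3 and Rpn8 were 0.18 and 0.14.

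**Figure D1:**
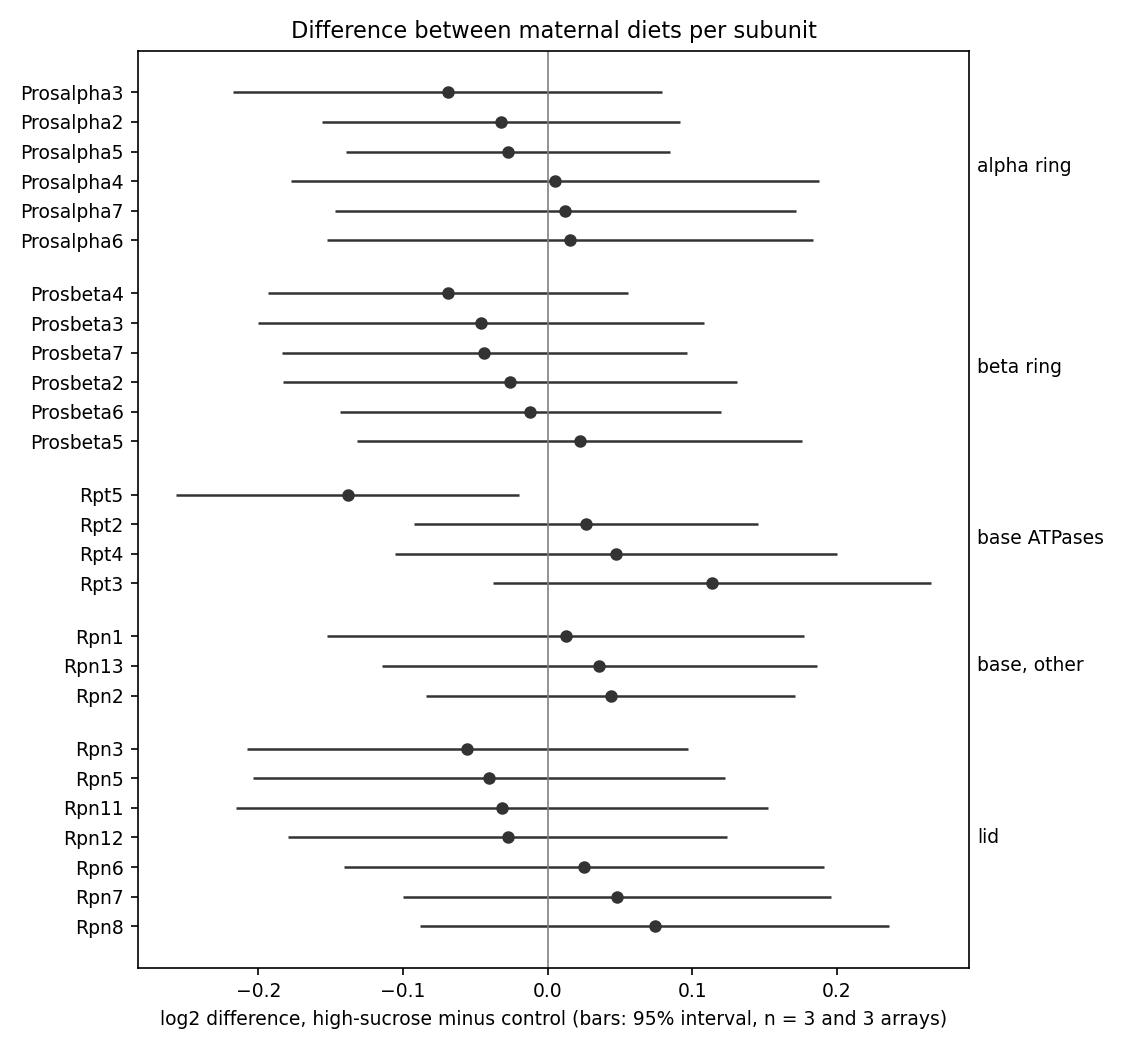
Log2 difference between maternal diets (high-sucrose minus control) for each of the 26 subunits, grouped by their place in the complex, with bars for the 95% interval from the fit (3 against 3 arrays). All points lie between -0.14 and 0.11, and every interval but that of Rpt5 includes 0.

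Among the alpha subunits, which form the gated outer rings, 3 of the 6 measured lay below 0 and 3 above, with a median log2 difference of -0.011. Prosalpha3 had the lowest difference of the ring, with intensities of 1883, 1829 and 1682 in control and 1753, 1581 and 1808 in high-sucrose arrays (log2 difference -0.069 ± 0.066 SE; adjusted p = 0.713). Its control 1 was the highest of the 6 arrays and its high-sucrose 2 the lowest, and the groups overlap. At the other end Prosalpha6 was at 1637, 1637 and 1454 in control and 1666, 1439 and 1681 in high-sucrose arrays (0.016 ± 0.074; adjusted p = 0.954). Control 3 and high-sucrose 2 were its low arrays, and the groups overlap almost entirely. Prosalpha2, Prosalpha4, Prosalpha5 and Prosalpha7 had log2 differences from -0.032 to 0.012.

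The beta subunits line the chamber in which proteins are cut, and 5 of the 6 measured lay below 0, with a median of -0.035. Prosbeta2 carries the trypsin-like site, cutting after basic residues, and was at 1494, 1442 and 1383 in control and 1492, 1271 and 1488 in high-sucrose arrays (-0.026 ± 0.070; adjusted p = 0.919). High-sucrose 2 was its lowest array and the other high-sucrose arrays lay within 10 of control 1. Prosbeta5, with the chymotrypsin-like site that cuts after large hydrophobic residues, was at 1582, 1679 and 1455 in control and 1671, 1481 and 1636 in high-sucrose arrays (0.022 ± 0.068; adjusted p = 0.928), the highest difference of the ring. Its lowest arrays were control 3 and high-sucrose 2, 1 in each group. Prosbeta4, a subunit without a proteolytic site, had the lowest difference of the ring, at 1733, 1619 and 1599.8 in control and 1599, 1493 and 1627 in high-sucrose arrays (-0.069 ± 0.055; adjusted p = 0.654). Control 3 and high-sucrose 1 were almost equal, high-sucrose 3 lay above control 2, and high-sucrose 2 was lowest. The other non-catalytic subunits Prosbeta3, Prosbeta6 and Prosbeta7 had log2 differences of -0.046, -0.012 and -0.044.

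Within the base, the ATPase ring held both ends of the whole range. Rpt5 belongs to the ATPases whose tails, in yeast, dock into the alpha ring and open the gate. Its intensities were 1422, 1297 and 1415 in control and 1243, 1244 and 1263 in high-sucrose arrays, a mean of 1378 ± 70.3 against 1250.0 ± 10.9. All high-sucrose arrays lay below the lowest control array, control 2, and differed from each other by less than 20. The log2 difference was -0.14 ± 0.053 (95% interval -0.26 to -0.019), with an adjusted p of 0.323 in limma, so Rpt5 did not pass. An exact permutation test on its intensities gives p = 0.1, two-sided, the smallest that 3 against 3 arrays allow. Any probe set without overlap gives that value, and Rpt5 was the only such subunit, so the test adds nothing to the lack of overlap. After quantile normalization its difference was -0.070 (adjusted p = 0.688).

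Rpt3, whose tail docks in the same way in yeast, had the opposite sign, at 1754, 1839 and 1603 in control and 1866, 1759 and 1999.8 in high-sucrose arrays (0.11 ± 0.067; 95% interval -0.038 to 0.27; adjusted p = 0.530). High-sucrose 3 was the highest and control 3 the lowest array, and control 2 lay above high-sucrose 2. Rpt2 and Rpt4 had log2 differences of 0.027 and 0.047.

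The other subunits of the base serve as scaffolds and ubiquitin receptors, and all 3 measured lay slightly above 0. Rpn1, which in yeast binds ubiquitin and the shuttle proteins that deliver substrates, was at 909, 947 and 837 in control and 933, 822 and 964 in high-sucrose arrays (0.013 ± 0.073; adjusted p = 0.962). Rpn13, a ubiquitin receptor that holds the deubiquitinase Uch-L5, was at 1288, 1485 and 1257 in control and 1353, 1402 and 1368 in high-sucrose arrays (0.036 ± 0.067; adjusted p = 0.871). The high-sucrose arrays of Rpn13 fall inside the range of its controls. Rpn2, the scaffold to which Rpn13 attaches, was at 1413, 1469 and 1334 in control and 1411, 1412 and 1524 in high-sucrose arrays (0.044 ± 0.057; adjusted p = 0.802).

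In the lid, 4 of the 7 measured subunits lay below 0 and 3 above, with a median of -0.028. Rpn11 is the metalloprotease that strips the ubiquitin chain from a substrate as it enters. It was at 1605, 1512 and 1354 in control and 1526, 1307 and 1542 in high-sucrose arrays (-0.031 ± 0.082; adjusted p = 0.915), with control 3 and high-sucrose 2 as its low arrays. Its catalytically inactive partner Rpn8 was at 1239, 1344 and 1206 in control and 1351, 1208 and 1437 in high-sucrose arrays (0.074 ± 0.072; adjusted p = 0.722), the highest difference in the lid. Rpn8 was highest in high-sucrose 3, and its lowest arrays, control 3 and high-sucrose 2, differ by less than 3. Rpn3, a structural subunit, had the lowest difference, at 1145, 1158 and 1012 in control and 1126, 1009 and 1051 in high-sucrose arrays (-0.055 ± 0.068; adjusted p = 0.790). The remaining structural subunits Rpn5, Rpn6, Rpn7 and Rpn12 had log2 differences from -0.040 to 0.048.

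**Figure D2:**
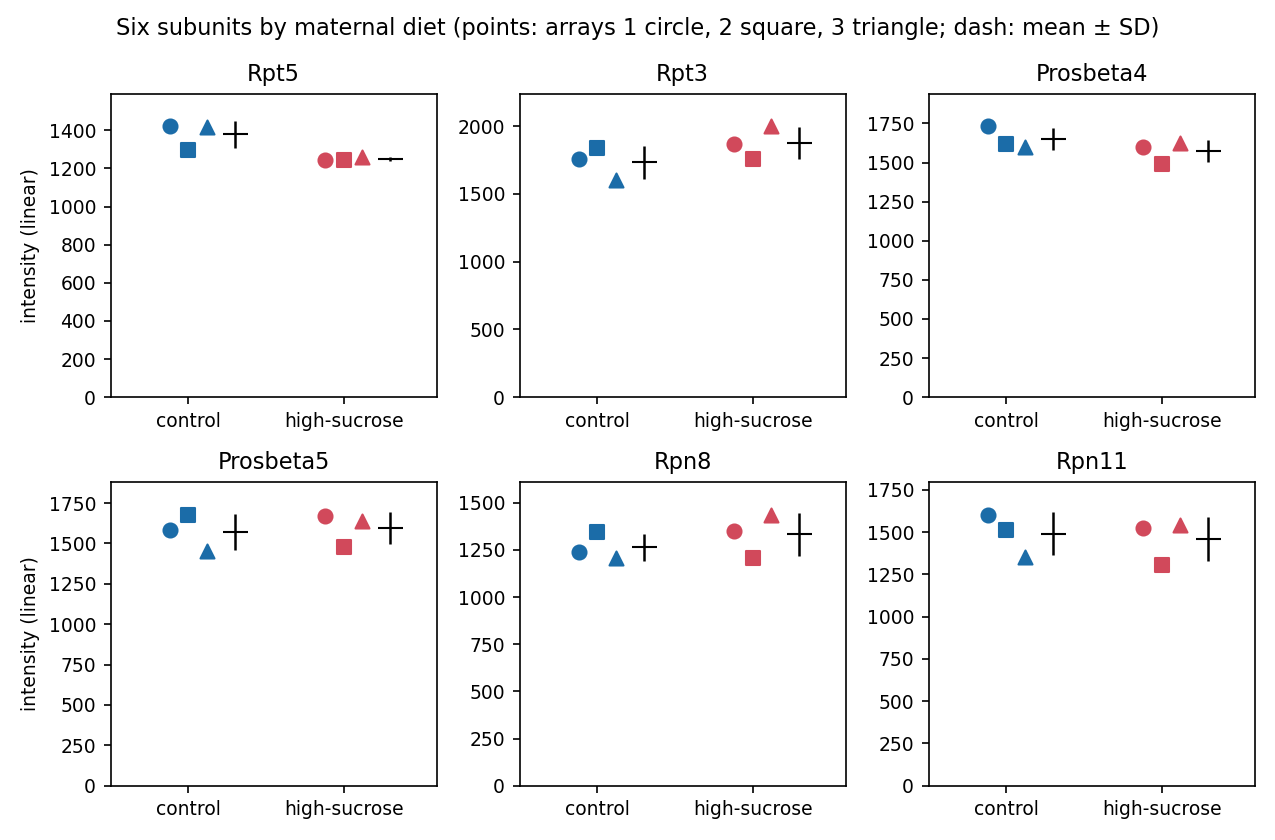
Linear intensity of 6 subunits in each array by maternal diet, with the mean and SD of each group beside the points and axes from 0. The groups overlap for 5 of them, and for Rpt5 the 3 high-sucrose arrays lie between 1243 and 1263, under the 3 controls.

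Core, base and lid were then compared with each other. Their median log2 differences were -0.027 over 12 core subunits, 0.036 over 7 of the base and -0.028 over 7 of the lid, all within 0.04 of 0, and 8, 1 and 4 members lay below 0. After quantile normalization or cyclic loess, 2, 1 and 0 did. Each array's core mean minus its base mean, both taken as deviations from each subunit's own mean on the log2 scale, was 0.00064 to 0.061 in the control group and -0.073 to 0.029 in the other. The same measure for core minus lid was -0.010 to 0.028 and -0.018 to 0.00015, and for base minus lid -0.071 to 0.028 and -0.043 to 0.073. The diets overlap in all 3 measures. No p is given, since the subunits of a part share their arrays.

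The subunits did vary, and they did so together between arrays of the same diet. Averaged over all 26, the deviation from each subunit's own mean was 0.038, 0.051 and -0.082 in control 1, 2 and 3 and 0.039, -0.094 and 0.047 in high-sucrose 1, 2 and 3, on the log2 scale. Control 3 lay -0.13 from the mean of the other controls, and high-sucrose 2 lay -0.14 from the mean of the other high-sucrose arrays, while the difference between the diet means of these deviations was -0.0052. Of the 26 subunits, 25 had their lowest value of all 6 arrays in control 3 (9) or high-sucrose 2 (16), and the exception was Rpt5, lowest in high-sucrose 1. Among all probe sets, 29.3% were lowest in either of these arrays, and 30.3% of those in the upper quartile of mean intensity, where all 26 subunits lie. These arrays were picked out after the values of the subunits were seen.

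**Figure D3:**
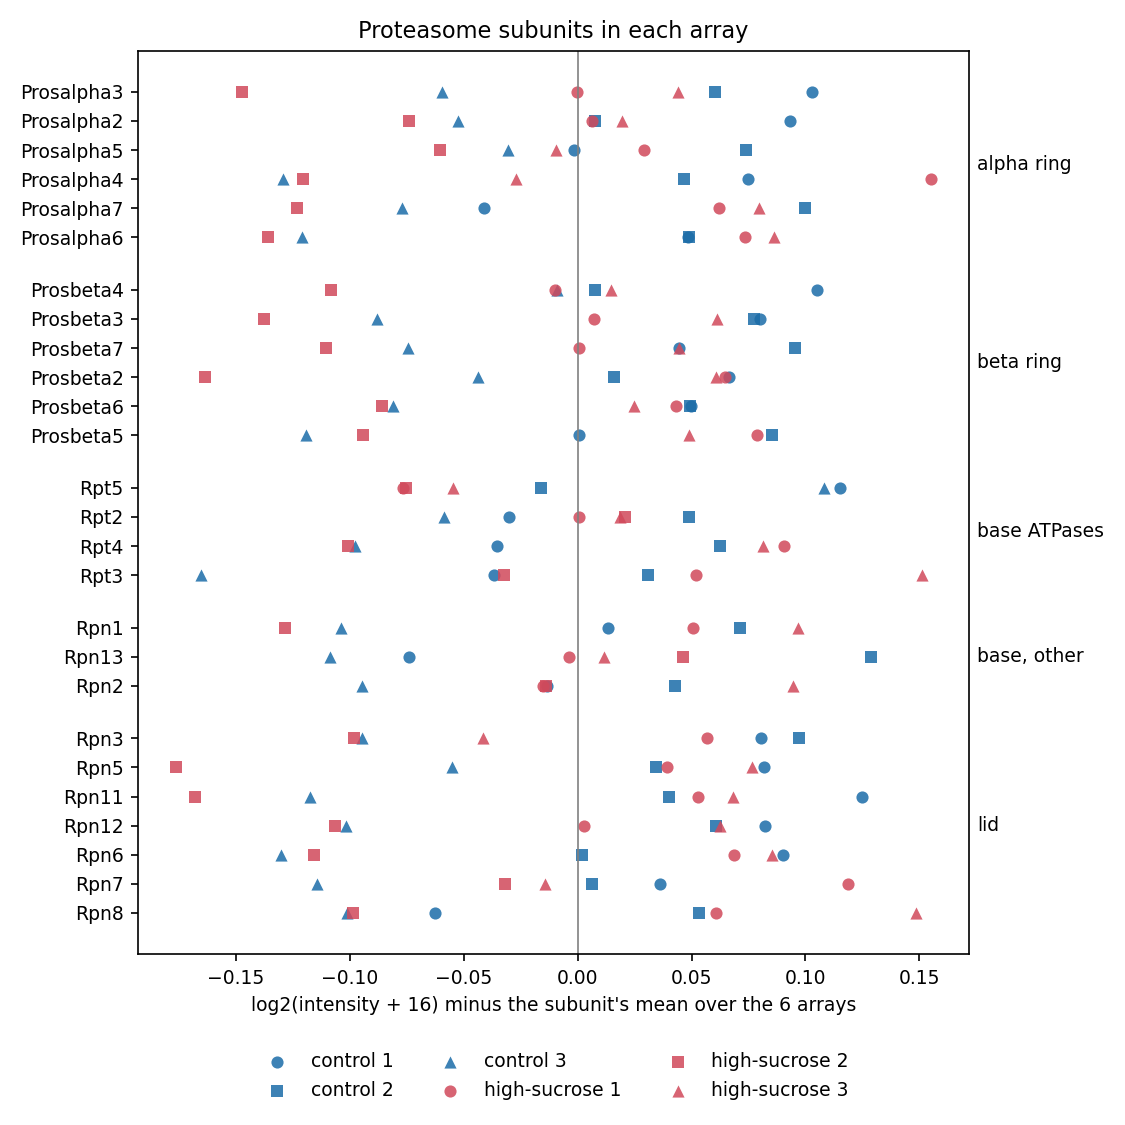
Each subunit's log2(intensity + 16) in each array, as the deviation from its own mean over the 6 arrays (blue control, red high-sucrose; circle, square and triangle for replicates 1, 2 and 3). The triangles of control and the squares of high-sucrose lie to the left for most subunits, and in 25 of 26 one of them is the lowest point.

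Both arrays were the lowest of their own diet for 22 of the 26 subunits (84.6%), against 11.3% of all probe sets and 15.7% of the upper quartile. These were all 12 core subunits, all 7 of the lid and 3 of the 7 of the base. The base members outside the pattern were Rpt2, Rpt5, Rpn2 and Rpn13. Rpt2 varied least of all 26 subunits, at 691, 731 and 678 in control and 707, 717 and 716 in high-sucrose arrays. After quantile normalization, median centring and cyclic loess the count was 22, 22 and 24 of 26, against 13.5%, 12.7% and 14% of all probe sets. In the upper quartile the shares were 21%, 16.9% and 21.2%.

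Read against the other subunits of the same array, most subunits kept a steadier level. The median SD within a diet was 0.094 for a subunit on its own and 0.048 for its deviation minus the mean deviation of the other 25, and 23 of the 26 had the smaller SD in the second form. Rpt5, Rpt2 and Rpn13 were the 3 with the larger. For Rpt5 the deviation from the other subunits was 0.080, -0.070 and 0.20 in control and -0.12, 0.019 and -0.11 in high-sucrose arrays, and its groups overlap on this measure. For Rpt3 it was -0.078, -0.021 and -0.087 in control and 0.014, 0.064 and 0.11 in high-sucrose arrays, with all high-sucrose arrays above all controls. Rpt3 was 1 of 3 of the 26 subunits whose diets did not overlap in this form, where 11.9% of all probe sets did not overlap when set against the subunits in the same way; the others were Prosalpha3, at 0.067, 0.010 and 0.023 in control and -0.041, -0.056 and -0.0034 in high-sucrose arrays, and Prosbeta7, at 0.0067, 0.046 and 0.0075 in control and -0.040, -0.017 and -0.0028 in high-sucrose arrays. These measures are given without a test.

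Genes that work with the proteasome were examined next. Of the 7 listed assembly and associated factors, 6 were measured and 0 passed, with a median log2 difference of 0.011. Pomp, the chaperone that matures the core, was at 1301, 1362 and 1219 in control and 1549, 1235 and 1515 in high-sucrose arrays (0.14 ± 0.086; adjusted p = 0.549). Sem1, a small lid subunit outside the naming rule, was at 1845, 1923 and 1679 in control and 2128, 1720.2 and 2169 in high-sucrose arrays (0.14 ± 0.091; adjusted p = 0.578). In both genes control 3 and high-sucrose 2 were the low arrays of their diets, as they were for 5 of these 6 factors. The mean deviation of the 6 was -0.12 in control 3 against the other controls and -0.18 in high-sucrose 2 against the other high-sucrose arrays.

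The ubiquitin genes and the substrate delivery factors also had no calls, 0 of 4 and 0 of 6 measured. RpL40, a ribosomal protein made as a fusion with ubiquitin, had the smallest p of the ubiquitin genes, at 6690.2, 6788 and 7017 in control and 6185, 6468 and 6167 in high-sucrose arrays (-0.12 ± 0.045; adjusted p = 0.303). Its groups do not overlap, and neither do those of RpS27A, the other ribosomal fusion, so 2 of these 4 genes showed no overlap, against 18.5% of all probe sets. The polyubiquitin genes Ubi-p5E and Ubi-p63E had log2 differences of 0.014 and -0.014. Among the shuttle proteins and the p97 unfoldase complex, p47 had the smallest p, at 591, 697 and 666 in control and 687, 697 and 738 in high-sucrose arrays (0.12 ± 0.070; adjusted p = 0.525). Its control 2 lay above high-sucrose 1, so the groups overlap. All 6 log2 differences lay above 0, from 0.0069 to 0.12. The unfoldase itself, TER94, was at 2867 ± 157 against 2934 ± 43.0. Control 3 and high-sucrose 2 were both lowest of their diets in 4 of these 6 genes (2 after median centring), and in 1 of the 4 ubiquitin genes, Ubi-p5E (2 after quantile normalization or cyclic loess).

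Of 4 regulators of proteasome genes 0 passed. The transcription factor cnc was at 2563, 2987 and 2638 in control and 2803, 2814 and 2782 in high-sucrose arrays (0.040 ± 0.061; adjusted p = 0.836), with control 2 highest and control 1 lowest. Its negative regulator Keap1 had the smallest p of this list, at 123, 128 and 137 in control and 106, 115 and 121 in high-sucrose arrays (-0.16 ± 0.087; adjusted p = 0.490). In 0 of these 4 genes were control 3 and high-sucrose 2 both lowest of their diets (1 after quantile normalization). Averaged over the 4, control 3 lay -0.032 from the other controls and high-sucrose 2 lay -0.068 from the other high-sucrose arrays. RNA of cnc does not measure its activity as a protein.

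The testis carries close relatives of several subunits, and 13 of 15 listed were measured. They were dim, with means from 17.8 to 135, all under the upper quartile of the probe sets. None of the 13 passed, and 3 lay higher at an unadjusted p under 0.05, as did 3.59% of all probe sets. Rpt3R, a relative of Rpt3, had the smallest p, at 117, 113 and 125 in control and 154, 148 and 146 in high-sucrose arrays (0.30 ± 0.079; adjusted p = 0.160). It was 1 of 4 of the 13 with no overlap between groups, against 18.5% of all probe sets. Their median log2 difference was 0.082, and control 3 and high-sucrose 2 were both lowest in 1 of 13.

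Large complexes of other kinds and the other main degradation route served for comparison, each with 0 calls. The COP9 signalosome is built from relatives of the lid subunits, and the translation factor eIF3 is so in part. Over 9 COP9 genes the median was -0.047, with the smallest p for CSN5, a relative of Rpn11, at 392, 364 and 362 in control and 311, 319 and 338 in high-sucrose arrays (-0.20 ± 0.064; adjusted p = 0.252). Over 13 eIF3 genes it was -0.0042, with the smallest p for eIF3m, at 1371, 1397 and 1341 in control and 1300.3, 1252 and 1244 in high-sucrose arrays (-0.11 ± 0.047; adjusted p = 0.373). The CCT chaperonin, which folds actin and tubulin, had a median of -0.010 over 8 genes, with the smallest p for CCT7, at 1802, 1808 and 1805 in control and 1692, 1734 and 1727 in high-sucrose arrays (-0.071 ± 0.044; adjusted p = 0.547). Genes of autophagy, the lysosomal route, had -0.093 over 7, with the smallest p for Atg5, at 218, 211 and 201 in control and 183, 182 and 194 in high-sucrose arrays (-0.16 ± 0.071; adjusted p = 0.402). The groups do not overlap for these 4 genes, each picked as the smallest p of its list, and none passed. In the full lists 3 of 9 COP9, 3 of 13 eIF3, 1 of 8 CCT and 3 of 7 autophagy genes showed no overlap, against 18.5% of all probe sets.

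The low level in control 3 and high-sucrose 2 was not seen in every complex. Both arrays were lowest of their diets in 1 of 9 COP9, 1 of 13 eIF3 and 1 of 8 CCT genes, against 5 of 7 autophagy genes. Control 3 deviated from the other controls by -0.0046 for COP9, -0.040 for eIF3 and -0.11 for autophagy, and high-sucrose 2 from the other high-sucrose arrays by -0.11, 0.028 and -0.10. For COP9, then, high-sucrose 2 lay low and control 3 did not. A large share of that low value came from CSN1a, at 81.5, 68.9 and 133 in high-sucrose arrays. CSN1a was the dimmest and most variable of the 9 genes. After cyclic loess 5 of 13 eIF3 genes showed the pattern, and after quantile normalization 3. After median centring 3 of 9 COP9 genes did, and 0 of 13 eIF3 genes.

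**Figure D4:**
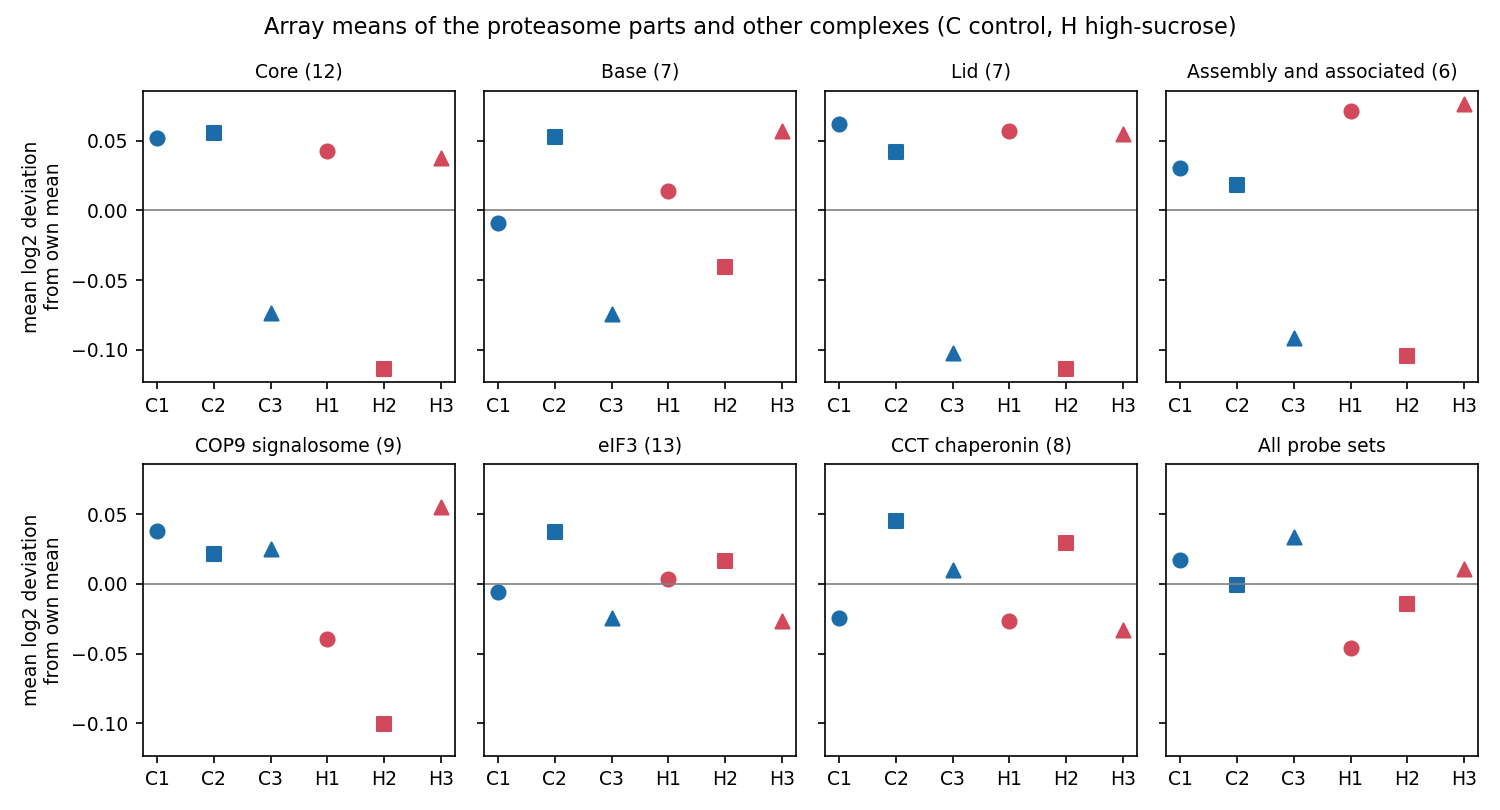
Mean log2 deviation of each array from the genes' own means, for core, base and lid, for the assembly factors, for 3 other complexes and for all probe sets (C control, H high-sucrose; number of genes in brackets). C3 and H2 are the lowest points of their diets in the panels for core, base, lid and assembly factors. In those for COP9, eIF3, CCT and all probe sets they are not both lowest. Several lists not drawn here also had both arrays lowest by this mean. These were the autophagy, ubiquitin, regulator, and shuttle and p97 genes, and the fat body, salivary gland and testis markers. The midgut and muscle markers and the testis relatives of the subunits did not.

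Cell type markers moved with these arrays in several ways, and their part in the pattern was not tested. The 4 salivary gland glue genes lay -0.19 in control 3 and -0.070 in high-sucrose 2 from the other arrays of the diet, with both lowest in 3 of 4. The 3 fat body markers lay -0.17 and -0.060 (1 of 3), and the 6 testis markers -0.094 and -0.12 (1 of 6). In both arrays the fat body value rested largely on Fbp1 (5174, 5749 and 3995 in control and 5159, 4126 and 5405 in high-sucrose arrays). Lsp2 (12411, 12672 and 12381 in control) and Fbp2 (9444, 9285 and 9032) were only slightly lower in control 3. In high-sucrose 2 these 2 genes were the highest of their diet. The testis value of high-sucrose 2 rested largely on bam (354, 247 and 513). The 3 muscle markers lay in the opposite direction, 0.12 and 0.14 (0 of 3). The 9 midgut enzyme markers, which differed between the diets, lay 0.042 and 0.025 (0 of 9). Over all probe sets the same deviations were 0.025 and 0.0030.

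The balance of signs between diets rested on which arrays were used. Leaving out 1 array at a time moved the median log2 difference of the subunits between -0.052 (without control 3, 20 of 26 below 0) and 0.041 (without high-sucrose 2, 6 of 26 below 0), and 0 of 26 passed in each of these fits.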

How the data were processed

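Biotinylated cRNA was made from 2 ug of DNase-treated total RNA for Affymetrix arrays, per the labels' protocols. The authors deposited 1 linear intensity for each of 18952 probe sets and array; their summary and scaling methods are not stated in the labels or the file. After leaving out 183 control probe sets, log2(intensity + 16) was fitted in R 4.3.3 with limma 3.58.1 (2 groups, variances following mean intensity), with Benjamini-Hochberg adjustment over all 18769 probe sets and a threshold of 0.05. The maternal diet in the characteristics set the groups, with 3 arrays each, which the titles call biological replicates. Symbols came from the platform annotation; Ufd1 and alien were found through synonyms in a RefSeq gene table (Release 6 plus ISO1 MT).

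The members and lists were chosen with earlier results of these data known. Full values are given for the 6 subunits with the smallest p, the lowest and highest difference in each of the 5 subunit lists, catalytic subunits, ubiquitin receptors, Rpn11 and cnc, and the smallest p in each list of related genes (not the cell type markers); Rpt2, Sem1, Prosbeta7, TER94, dj and genes given by their log2 difference alone were added after their values were seen. Alternatives were other scalings, pseudocounts, variance models, array weights, filters on dim probe sets, a replicate block and each array left out. The fit was tested on simulated data, with noise drawn separately for each probe set and array. Deviations that many probe sets share in an array were not simulated.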

Additional observations from a re-analysis of the deposited data

How the results depend on the processing

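In the 17 alternatives run, 0 of the 26 proteasome subunits passed, with the smallest adjusted p (limma) between 0.224 and 0.608. The medians of all subunits, core and lid moved by less than the spread between arrays in all 17, though their signs turned in several: over all subunits the median ran from -0.052 to 0.072. The median of the base, 0.036, was 0.098 after quantile normalization and 0.10 after cyclic loess. Those of core and lid, -0.027 and -0.028, were 0.044 and 0.057 after quantile normalization, so the base did not shift further than they did. Signs changed for 10 of 26 subunits after each of these, for 2 after median centring, for 1 with array weights and for 2 to 7 when an array was left out; none of these had passed. At an unadjusted p under 0.05 the subunit was Rpt3 in place of Rpt5 after quantile normalization, cyclic loess or without high-sucrose 2, and there was no such subunit after median centring, without the intensity trend or in 4 of the 6 fits that leave out 1 array. Rpt5 was under 0.05 in 1 of those 6, the one that omits control 2. The count of all probe sets called, 117, was 4 without the intensity trend, 195 with robust variances and 13 to 163 when an array was left out (13 without control 2, 31 without control 3, 42 without high-sucrose 1, 35 without high-sucrose 3). With the replicate block 63 were called and 0 subunits. Same-numbered arrays did not deviate together (correlations of -0.072, 0.025 and -0.014 over probe sets), so the numbers were not taken as pairs. Other choices of probe set per gene were not run, since 0 subunits have over 1 probe set. Subunit signals lay above the upper quartile of all probe sets.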
